A study of Mus musculus with 8 samples.

Results

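Endothelial identity genes are 43 genes that mark the inner lining of blood and lymph vessels, and they were followed in tumours grown from 4T1, a carcinoma line of the mouse mammary gland. They were listed by symbol and found through the RefSeq accession that each probe carries, which gave 53 of the 55681 non-control probes and 43 of the 20145 genes with a symbol on the array. A gene was tested if a probe stood well above background on 4 or more of 8 arrays, and 39 of the 43 were, among 16377 tested named genes. Before implantation the 4T1 cells of the 4 PRH arrays had been infected with Adenoviral-PRH, and those of the 4 control arrays with Empty adenovirus. PRH is the proline-rich homeodomain protein, the product of the gene Hhex. In both groups the infection ran for 24 h at a multiplicity of 50, then 250000 cells went into the no. 3 fat pad of female BALB/C mice aged 6 to 8 weeks, and the tumours were taken on day 22. It was the injected carcinoma cells that had been infected, whereas vessels of such grafts come largely from the host. Mouse numbers 1, 2, 3 and 5 occur in both groups and name the arrays below.

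Endothelial cells hold the vessel wall together through junctions of VE-cadherin, PECAM and claudin, coat their inner face with sialomucins, and carry receptors that respond to flow and to growth factors. Their identity is set by transcription factors of the ETS family (Erg, Fli1, Ets1), the SoxF family (Sox7, Sox17, Sox18) and the basic helix-loop-helix proteins Tal1 and Lyl1. In tumours, sprouting vessels are led by tip cells, which are known for Dll4, Apln and Esm1, while lymphatic vessels are marked by Prox1, Lyve1 and Pdpn.

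The labels conflict on the material. One field has RNA taken from each tumour, whereas the extraction protocol speaks of endothelial isolates, and the design text calls the arrays human although their probes carry mouse accessions. The arrays read genes of the carcinoma and of its stroma beside those of vessels: all 12 listed epithelial genes, all 12 fibroblast genes, all 12 pericyte genes and the 10 leukocyte genes that had a probe were well above background on all 8 arrays, as were 38 of the 43 endothelial identity genes. In such material, fewer endothelial cells and less RNA per endothelial cell cannot be told apart. The arrays shared 1 slide and 1 scan, with the PRH arrays in slide column 1 and the control arrays in slide column 2, so column and group cannot be told apart. On each array 64.2% to 73.9% of probes were above background. The share was 73.2 ± 0.77% for the PRH arrays and 66.7 ± 2.30% for the control arrays (SD, n = 4 each, exact permutation p = 0.0286). Every PRH array lay above every control array in this share. No spot was saturated, and the number of arrays limits the precision. The signal's 75th percentile was 722 ± 41.2 for the PRH arrays and 1094 ± 131 for the control arrays (SD, n = 4 each, exact permutation p = 0.0286, the smallest that 70 arrangements allow). Levels below are log2 of the signal relative to this percentile of the same array, and a difference is PRH minus control.

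Hhex itself read lower under the PRH label. It stood at -1.71, -1.46, -1.79 and -1.72 on PRH arrays 1, 2, 3 and 5, against -0.54, -0.33, -0.69 and -0.78 on control arrays 1, 2, 3 and 5, a difference of -1.09 (SE 0.149, limma adjusted p = 0.00686). The tumours are therefore called PRH-labelled, and every direction is that of the label. Whether this mouse probe can read the RNA of Adenoviral-PRH was not analysed here, so the value is that of the Hhex RNA the probe reads.

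Of the 39 tested endothelial identity genes, 0 rose and 2 fell in PRH-labelled tumours, Ets1 and Podxl, at an adjusted p under 0.05 in limma's fit over all 34543 items of the array. That is 5.13% of the genes, where 25.9% of all items were called, 17.2% higher and 8.67% lower, and 23.4% of named genes, 10.6% higher and 12.9% lower. Over all items 5938 were called higher and 2996 lower, against 2926 higher and 7612 lower after centring each array on its median and 4144 higher and 4649 lower after quantile normalization. Where calls under other settings are named below, the share of all items called was 30.5% with median centring, 25.5% with quantile normalization, 23.6% with normexp, 23.3% in the authors' values, 31.4% among probes above background on all 8 arrays, 25.0% after averaging probes per gene and 35.4% when mouse number was a block. Without PRH arrays 1, 2, 3 and 5 in turn it was 16.6%, 18.4%, 20.1% and 17.3%, and without control arrays 1, 2, 3 and 5 it was 33.2%, 16.9%, 20.2% and 16.7%. At an unadjusted p under 0.05 there were 6 of the 39 (15.4%), against 38.9% of all items. The groups did not overlap in 3 genes, Icam2 (PRH-labelled higher), Ets1 and Podxl (PRH-labelled lower), against 31.4% of all items, 20.1% higher and 11.3% lower. Of the 39 differences 28 were positive and 11 negative, with a median of 0.16 beside 0.29 for all items and -0.02 for named genes. After centring each array on its median, the medians were -0.30 for the endothelial genes and -0.18 for all items. That centring moves every difference by the same -0.47, endothelial or not, so each sign holds only relative to the scaling chosen.

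**Figure D1:**
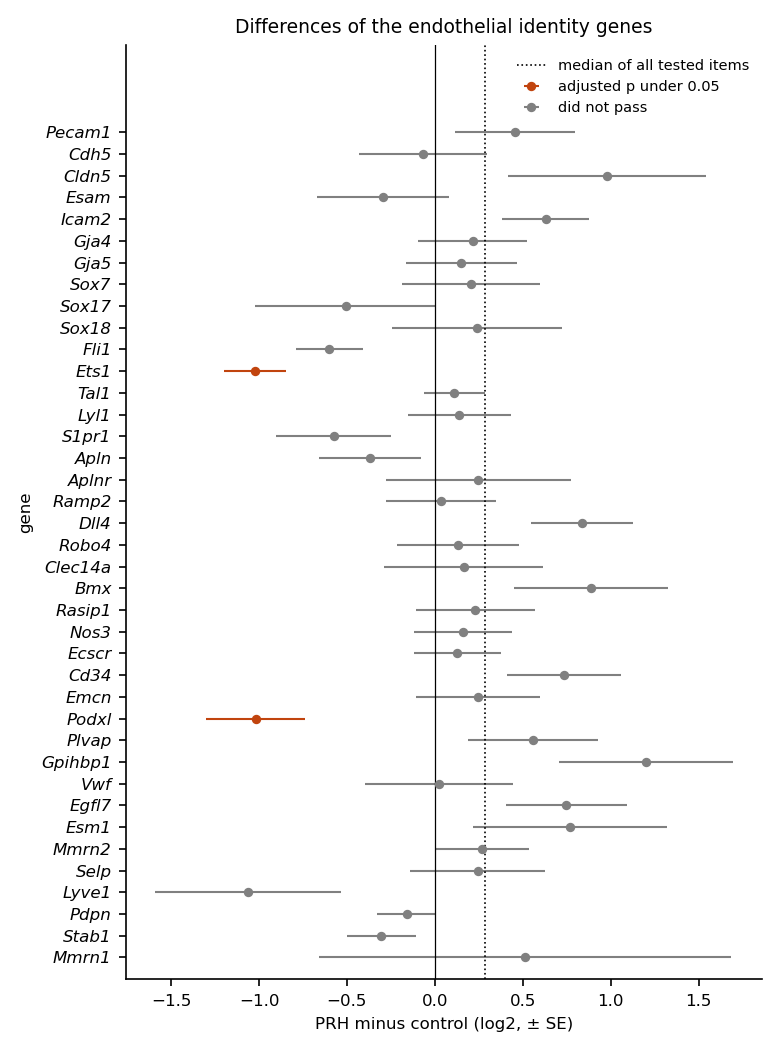
Difference of each of the 39 tested endothelial identity genes, PRH-labelled minus control, in log2 units on the x axis, with bars of 1 SE and genes ordered by role down the y axis. The dotted line marks the median difference of all tested items, 0.29, and the 2 coloured genes, Ets1 and Podxl, passed the adjusted p of 0.05.

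The control arrays differed among themselves in these genes far more than the PRH-labelled arrays did, and this spread bears on every value that follows. Control 2 and control 3 stood at opposite ends. Taking each gene's deviation from its own mean over 8 arrays, the median over the 39 genes was 0.01, 0.15, 0.02 and 0.14 on PRH arrays 1, 2, 3 and 5, against 0.03, 0.58, -0.78 and -0.15 on control arrays 1, 2, 3 and 5. The summed level of the 39 genes, with the 75th percentile set to 1, was 125, 131, 129 and 136 on PRH arrays 1, 2, 3 and 5, against 113, 160, 69.4 and 99.1 on control arrays 1, 2, 3 and 5. Control 2 thus held the highest and control 3 the lowest summed level of the 8 arrays.

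**Figure D2:**
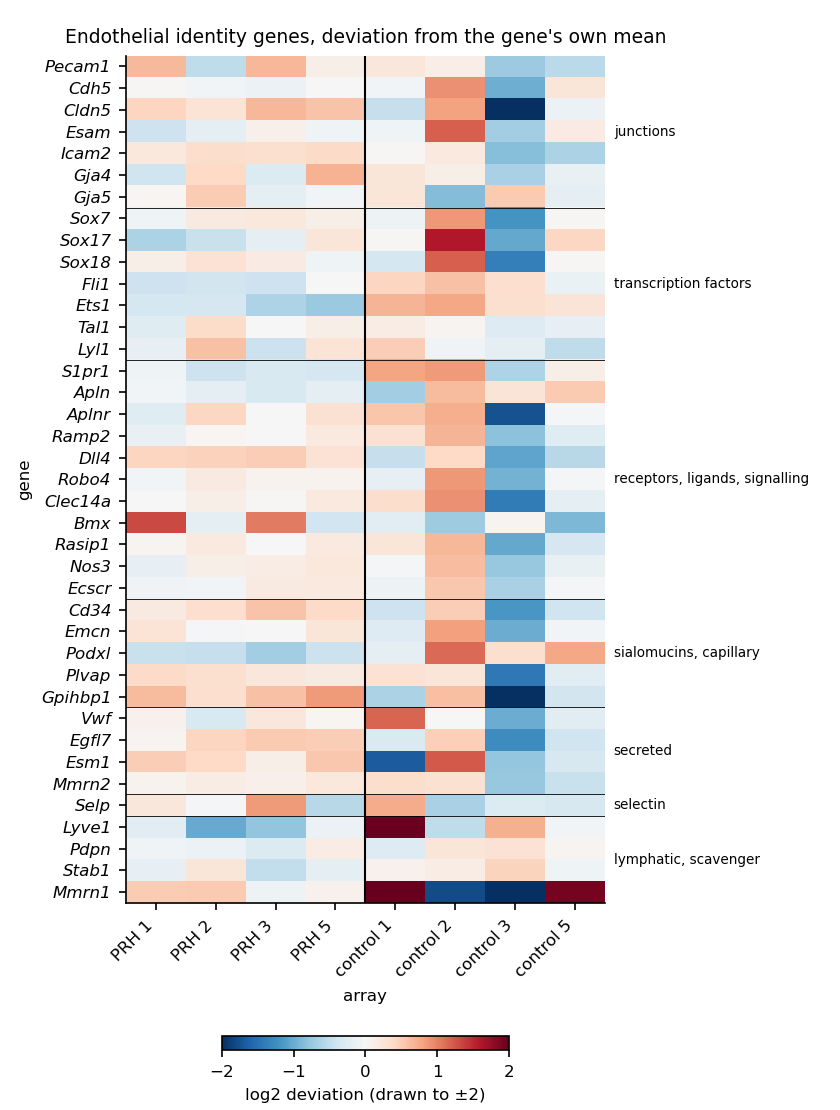
Deviation of each tested endothelial identity gene (rows, grouped by role) from its own mean over the 8 arrays (columns, PRH-labelled left of control), in log2 units, with colours drawn to ±2. The column of control 2 is mostly red and that of control 3 mostly blue, while the 4 PRH-labelled columns stay pale for most junction, receptor and sialomucin genes.

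Gene by gene the same arrays bounded the control group. Control 2 was the highest and control 3 the lowest control array in 20 of the 39 genes (51.3%). That order was found in 6.7% of all items and 9.11% of named genes. Control 3 was the lowest of all 8 arrays in 27 of the 39 (69.2%), against 24.4% of all items and 20.6% of named genes. Control 2 was the highest of all 8 in 20 (51.3%), against 10.9% of all items and 17.5% of named genes. Among the 11 tested receptor, ligand and signalling genes, 9 had control 2 highest and control 3 lowest of the controls, as had 4 of 7 junction genes, 3 of 7 transcription factors, 3 of 5 sialomucin and capillary genes and 1 of 4 secreted products. The single tested selectin and the 4 tested lymphatic and scavenger genes did not have this order.

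The standard deviation over 4 arrays had a median over the 39 genes of 0.17 in PRH-labelled tumours and 0.68 in controls, where all items had 0.26 and 0.39. The SD was larger in controls for 33 of the 39 genes (84.6%), beside 61.9% of all items and 69.8% of named genes. It was more than 4 times as large in 20 of the 39. The largest ratios were those of Cdh5, the VE-cadherin gene (SD 0.067 in PRH-labelled tumours and 0.79 in controls), and Clec14a, an endothelial lectin (0.085 in PRH-labelled tumours and 0.99 in controls). The exceptions were Bmx, Stab1, Gja4, Tal1, Pecam1 and Lyl1, whose SD was larger in PRH-labelled tumours. The range over 4 arrays stayed under 0.5 in 24 genes among the PRH-labelled tumours and in 1 gene, Tal1, among the controls. The count of 33 was 32 to 34 under the 5 other scalings, the authors' own values among them. The source of the spread was not tested.

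**Figure D3:**
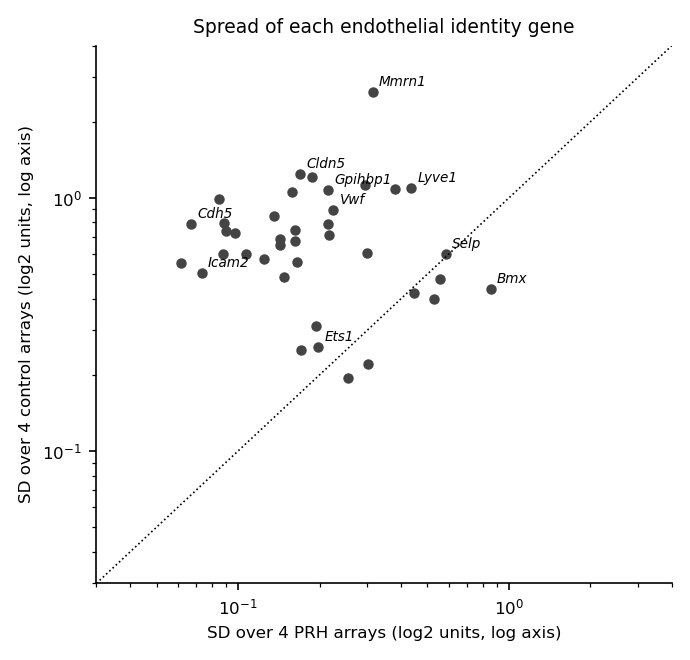
Standard deviation of each tested endothelial identity gene over the 4 PRH-labelled arrays (x axis) and over the 4 control arrays (y axis), in log2 units on log axes. Points above the dotted line of equality, 33 of 39, varied more among controls, with Cdh5 and Mmrn1 far above the line and Bmx below it.

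Promoters of 4 genes in which control 2 was the highest control are shown, as it was in 25 of the 39 genes. That of Cldn5, which has control 2 highest too, lacks the letters marked in the others. The lowest control was control 1 in Esm1 and control 3 in the others shown. Whether these letters bear on the levels of the arrays was not tested. RefSeq (GRCm38.p6) gave 29 promoters of 23 of the 43 genes, each running from 250 bases before to 50 bases after a start site. Capitals mark CAGGAA, a core that ETS factors can bind, on either strand, so that it also appears as TTCCTG. The windows lie at chr13:113209409-113209708 (Esm1), chr9:37401722-37402021 (Robo4), chr1:194938571-194938870 (Cd34), chr3:137340828-137341127 (Emcn) and chr16:18776597-18776896 (Cldn5), all on the + strand of GRCm38.p6, and are printed 5′ to 3′.
Esm1: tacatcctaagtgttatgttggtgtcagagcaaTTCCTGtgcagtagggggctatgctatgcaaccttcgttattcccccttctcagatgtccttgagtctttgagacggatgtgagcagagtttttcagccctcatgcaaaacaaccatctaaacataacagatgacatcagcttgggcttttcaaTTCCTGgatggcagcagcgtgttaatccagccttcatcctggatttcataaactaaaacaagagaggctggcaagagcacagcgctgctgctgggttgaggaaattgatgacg
Robo4: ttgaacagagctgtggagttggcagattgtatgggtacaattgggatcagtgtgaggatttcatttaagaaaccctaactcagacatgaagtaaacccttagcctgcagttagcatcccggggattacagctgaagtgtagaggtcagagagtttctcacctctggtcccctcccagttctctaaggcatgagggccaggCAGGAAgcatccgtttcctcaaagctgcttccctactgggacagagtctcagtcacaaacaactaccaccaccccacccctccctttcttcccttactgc
Cd34: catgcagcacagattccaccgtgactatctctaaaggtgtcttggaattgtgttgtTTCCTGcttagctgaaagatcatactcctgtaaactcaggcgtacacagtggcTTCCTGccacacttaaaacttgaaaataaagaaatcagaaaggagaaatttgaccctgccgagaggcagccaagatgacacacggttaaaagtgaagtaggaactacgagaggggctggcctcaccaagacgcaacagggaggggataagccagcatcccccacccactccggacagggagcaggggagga
Emcn: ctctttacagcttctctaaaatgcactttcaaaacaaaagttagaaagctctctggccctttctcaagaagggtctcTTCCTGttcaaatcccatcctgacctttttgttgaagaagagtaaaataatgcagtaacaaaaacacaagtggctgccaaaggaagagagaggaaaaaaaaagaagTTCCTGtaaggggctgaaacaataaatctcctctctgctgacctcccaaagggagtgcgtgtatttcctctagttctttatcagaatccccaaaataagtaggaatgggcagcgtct
Cldn5: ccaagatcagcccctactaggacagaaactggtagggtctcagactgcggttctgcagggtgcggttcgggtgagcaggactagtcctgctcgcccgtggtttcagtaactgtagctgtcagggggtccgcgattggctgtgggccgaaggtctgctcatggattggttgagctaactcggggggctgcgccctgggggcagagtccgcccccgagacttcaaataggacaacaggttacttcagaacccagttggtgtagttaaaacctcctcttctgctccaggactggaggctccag

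Esm1, Cd34 and Emcn hold 2 matches each and Robo4 holds 1, while the Cldn5 window holds 0. Of the 29 promoters 17 (58.6%) hold CAGGAA or its reverse, beside 30.6% of the 32851 promoters of the same length in the table. ACAGGAAG, which contains CAGGAA, was in 17.2% of the 29 and 3.58% of all, and AGGAAG, which overlaps both, in 44.8% and 35.4%. CGGAAG was in 6.9% of the 29, beside 16.9% of all, the overlapping CCGGAA in 3.45% beside 14.9%, and ACCGGAAG in 0 beside 2.3%. AACAAT, which SOX factors can bind, was in 13.8% of the 29 and 10.7% of all. The GATA factor core AGATAA was in 6.9% of the 29 and 11.2% of all. Each motif was searched on both strands, and these shares describe letters, not binding.

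Junction and adhesion genes gave no call in limma among 7 tested, with 1 of them at an unadjusted p under 0.05. Icam2, which encodes a leukocyte ligand on resting endothelium, was at 2.47, 2.60, 2.58 and 2.63 on PRH arrays 1, 2, 3 and 5, against 2.28, 2.46, 1.41 and 1.62 on control arrays 1, 2, 3 and 5. Every PRH-labelled array lay above every control array, though control 2 was close to PRH 1. The difference was 0.63 (SE 0.25, adjusted p = 0.102), a 1.55-fold higher level that did not pass. Cldn5, the endothelial tight junction claudin, had 2.09, 1.94, 2.33 and 2.24 on PRH arrays 1, 2, 3 and 5, against 1.21, 2.46, -0.51 and 1.54 on control arrays 1, 2, 3 and 5. The PRH-labelled arrays kept within a narrow band inside the control range, with control 2 above all of them and control 3 far below, and the difference of 0.98 (SE 0.56, adjusted p = 0.239) did not pass.

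Cdh5 encodes VE-cadherin, the main adherens junction protein of endothelium. Its level was 1.30, 1.21, 1.15 and 1.28 on PRH arrays 1, 2, 3 and 5, against 1.21, 2.19, 0.29 and 1.51 on control arrays 1, 2, 3 and 5, a difference of -0.07 (SE 0.36, adjusted p = 0.904). The PRH-labelled values sat in the middle of the controls. Pecam1, the junctional adhesion molecule often used to stain vessels, had 1.33, 0.17, 1.35 and 0.80 on PRH arrays 1, 2, 3 and 5, against 0.91, 0.81, -0.04 and 0.14 on control arrays 1, 2, 3 and 5 (difference 0.46, SE 0.34, adjusted p = 0.35). Pecam1 varied in both groups, and PRH 2 lay among the controls. Esam, a tight junction adhesion molecule, differed by -0.30 (SE 0.37), and Gja4, an arterial connexin, by 0.22 (SE 0.31), both within their spread.

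Gja5, another arterial connexin, was read by 2 probes whose differences were unequal. Its brighter probe differed by 0.15 (SE 0.32, adjusted p = 0.738). Its dimmer probe had -3.44, -4.02, -3.69 and -3.49 on PRH arrays 1, 2, 3 and 5, against -4.63, -5.42, -5.15 and -5.02 on control arrays 1, 2, 3 and 5. All 4 PRH-labelled values of that probe lay above all control values, by 1.39 on average (SE 0.21, limma adjusted p = 0.007 over all probes). With the mean of its probes Gja5 passed (0.77, adjusted p = 0.0379). When all tested probes were put in 10 bins of brightness, the median difference was 0.70 in the second dimmest, where the dimmer Gja5 probe lies, 0.55 in the fourth, where the other lies, and -0.13 in the ninth. The part of brightness in the Gja5 result was not tested.

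**Figure D4:**
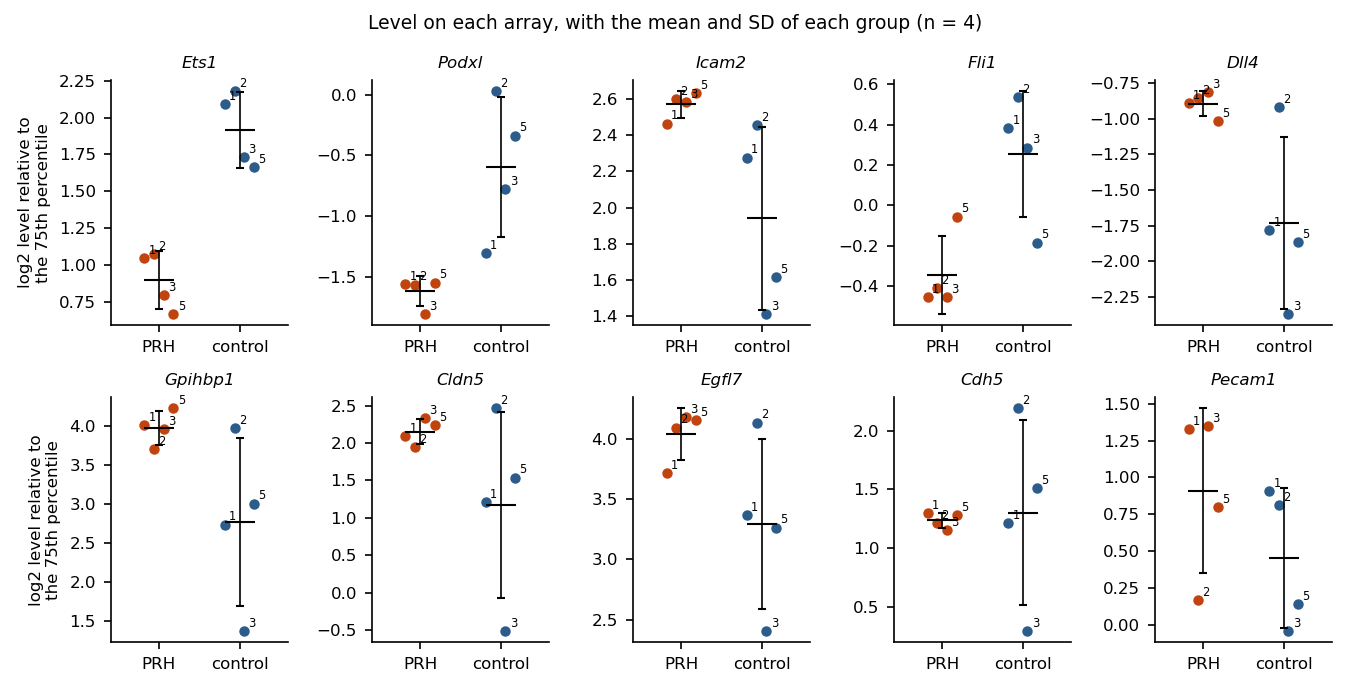
Level of 10 endothelial identity genes on each array (points, numbered by mouse), with the mean and SD of the 4 PRH-labelled and the 4 control arrays, in log2 units relative to the array's 75th percentile on y axes that differ between panels. Ets1 and Podxl lie lower and Icam2 higher in PRH-labelled tumours without overlap, and in most other panels control 2 and control 3 are the ends of a wide control group.

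Transcription factors gave 1 call among 7 tested, Ets1, with 2 at an unadjusted p under 0.05. Ets1, an ETS factor of endothelium that lymphocytes also express, was at 1.05, 1.07, 0.80 and 0.67 on PRH arrays 1, 2, 3 and 5, against 2.09, 2.18, 1.73 and 1.66 on control arrays 1, 2, 3 and 5. The lowest control array lay above the highest PRH-labelled one by more than either group's SD (0.20 in PRH-labelled tumours and 0.26 in controls). The Ets1 difference was -1.02 (SE 0.18, limma adjusted p = 0.00838), a 2.03-fold lower level. It was called in each of the 8 fits without 1 array, with differences of -1.11 to -0.93, and was not called when controls 2 and 3 were both left out (-0.98, adjusted p = 0.0676). Nor was it called with spike-in centring (-1.15, adjusted p = 0.159), under which 1 of all items passed.

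A second Ets1 probe did not pass. It read 1.41, 0.91, 1.36 and 1.03 on PRH arrays 1, 2, 3 and 5, against 1.84, 1.11, 1.53 and 0.88 on control arrays 1, 2, 3 and 5, and the groups overlapped (difference -0.16, SE 0.24, adjusted p = 0.635). Which transcripts each probe reads was not analysed here. Among the 11 listed lymphocyte genes tested, 0 were called in limma, with 1 at an unadjusted p under 0.05, and their median deviation was 0.23, -0.12, -0.50 and -0.12 on PRH arrays 1, 2, 3 and 5, against 0.68, 0.09, -0.14 and -0.49 on control arrays 1, 2, 3 and 5. Control 1 was the highest of these. Of the 11 lymphocyte differences 3 were positive and 8 negative, with a median of -0.28. The part of lymphocytes in the Ets1 result was not tested.

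Fli1, an ETS factor of endothelium and blood cells, came close to the threshold. It was at -0.46, -0.41, -0.46 and -0.06 on PRH arrays 1, 2, 3 and 5, against 0.38, 0.54, 0.29 and -0.19 on control arrays 1, 2, 3 and 5. PRH 1, PRH 2 and PRH 3 lay below every control, while PRH 5 lay above control 5. The difference of -0.60 (SE 0.19) had an adjusted p of 0.0552 in limma. It passed without control 5 (-0.75, adjusted p = 0.0334), after median centring (-1.07, adjusted p = 0.0149), after quantile normalization (-0.65, adjusted p = 0.0394), with normexp background correction (-0.72, adjusted p = 0.0205), in the authors' values (-0.75, adjusted p = 0.0233) and among probes above background on all 8 arrays (-0.60, adjusted p = 0.0408).

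The SoxF genes did not pass and carried the control spread. Sox18 had 0.93, 1.11, 0.99 and 0.73 on PRH arrays 1, 2, 3 and 5, against 0.47, 2.02, -0.54 and 0.84 on control arrays 1, 2, 3 and 5. Control 2 and control 3 lay on either side of all other arrays. The differences were 0.24 for Sox18 (SE 0.48), 0.21 for Sox7 (SE 0.39) and -0.51 for Sox17 (SE 0.52), and those of Sox7 and Sox18 were negative after median centring. The blood and vessel factors Tal1 and Lyl1 differed by 0.11 (SE 0.18) and 0.14 (SE 0.29), also negative after median centring. Erg, the ETS factor most closely tied to endothelium, was not tested, since its brighter probe was well above background on 1 of 4 PRH-labelled and 2 of 4 control arrays and its other probe on 0 of 8.

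Receptors, ligands and signalling genes gave no call in limma among 11 tested, with 1 at an unadjusted p under 0.05. Dll4, the Notch ligand of tip cells and arteries, was at -0.89, -0.86, -0.82 and -1.02 on PRH arrays 1, 2, 3 and 5, against -1.78, -0.92, -2.37 and -1.86 on control arrays 1, 2, 3 and 5. Controls 1, 3 and 5 lay well below all PRH-labelled arrays, and control 2 lay among them. The difference was 0.84 (SE 0.29, adjusted p = 0.069), and it passed without control 2 (1.11, adjusted p = 0.0228). Robo4, a roundabout receptor of endothelium, had 1.77, 1.99, 1.89 and 1.88 on PRH arrays 1, 2, 3 and 5, against 1.65, 2.69, 0.88 and 1.80 on control arrays 1, 2, 3 and 5. Its means differed by 0.13 (SE 0.35), while its control SD was 8.2 times that of the PRH-labelled arrays.

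Apelin and its receptor did not pass. Apln, the ligand, had 2.16, 2.03, 1.90 and 2.01 on PRH arrays 1, 2, 3 and 5, against 1.52, 2.85, 2.47 and 2.74 on control arrays 1, 2, 3 and 5. Control 1 lay below all other arrays and the other controls above the PRH-labelled ones, and the difference of -0.37 (SE 0.29) passed when control 1 was left out (-0.66, adjusted p = 0.0118). Aplnr, the receptor, differed by 0.25 (SE 0.53), with control 3 the lowest of all arrays. S1pr1, the sphingosine phosphate receptor that limits sprouting, differed by -0.58 (SE 0.33, adjusted p = 0.233) and passed after median centring (-1.04, adjusted p = 0.0436) and without control 3 (-0.88, adjusted p = 0.0357).

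Bmx, a TEC-family tyrosine kinase of arterial endothelium, varied more among PRH-labelled tumours. It was at 0.35, -1.16, 0.07 and -1.35 on PRH arrays 1, 2, 3 and 5, against -1.18, -1.68, -0.92 and -1.86 on control arrays 1, 2, 3 and 5. In each of the 4 mouse numbers the PRH-labelled array was the higher one. The difference of 0.89 (SE 0.44) had an adjusted p of 0.175 in limma without the mouse number in the model and passed with it as a block (adjusted p = 0.0346). Arrays of 1 number also share a slide row. A second Bmx probe was above background on 0 of 8 arrays.

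The remaining signalling genes had differences between 0.04 and 0.23. They are Ramp2, a subunit of the adrenomedullin receptor (0.04, SE 0.31), Ecscr, an endothelial surface regulator of migration (0.13, SE 0.25), Nos3, the endothelial nitric oxide synthase (0.16, SE 0.28), Clec14a (0.16, SE 0.45), and Rasip1, a Ras-binding protein needed for vessel lumens (0.23, SE 0.34). All 5 were negative after median centring. The second Nos3 probe differed by 0.15 (SE 0.31), and that of Clec14a was well above background on 1 array of each group. Calcrl, the receptor that Ramp2 partners, had a probe above background on 0 of 8 arrays and was not tested.

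Sialomucin and capillary genes gave 1 call among 5 tested, Podxl, with 2 at an unadjusted p under 0.05. Podxl encodes podocalyxin, a sialomucin of the vessel lumen that some epithelial cells also carry. It was at -1.56, -1.56, -1.80 and -1.54 on PRH arrays 1, 2, 3 and 5, against -1.30, 0.03, -0.78 and -0.34 on control arrays 1, 2, 3 and 5. The PRH-labelled arrays lay together below all controls, and control 1 was near them. The Podxl difference was -1.02 (SE 0.28, limma adjusted p = 0.033), a 2.03-fold lower level. Among the 8 fits without 1 array it passed only without control 1 (-1.25, adjusted p = 0.00507), and the largest adjusted p was 0.0876, without control 5. It was not called with spike-in centring (-1.15, adjusted p = 0.222) or without controls 2 and 3 (-0.80, adjusted p = 0.156). The 12 listed epithelial genes had a median deviation of -0.05, 0.19, 0.49 and 0.17 on PRH arrays 1, 2, 3 and 5, against -0.31, 0.08, -0.87 and 0.10 on control arrays 1, 2, 3 and 5, and their part in the Podxl result was not tested.

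Cd34 and Gpihbp1 had higher means in PRH-labelled tumours but did not pass. Cd34, a sialomucin of capillaries and of blood progenitors, had 3.05, 3.20, 3.44 and 3.26 on PRH arrays 1, 2, 3 and 5, against 2.46, 3.36, 1.71 and 2.48 on control arrays 1, 2, 3 and 5 (difference 0.74, SE 0.32, adjusted p = 0.137). Gpihbp1, which carries lipoprotein lipase across capillary endothelium, had 4.01, 3.70, 3.96 and 4.23 on PRH arrays 1, 2, 3 and 5, against 2.74, 3.98, 1.37 and 3.01 on control arrays 1, 2, 3 and 5 (difference 1.20, SE 0.50, adjusted p = 0.115). In both genes control 2 lay among the PRH-labelled arrays and the other controls below them. Without control 2 both passed, Cd34 at 1.02 (adjusted p = 0.0342) and Gpihbp1 at 1.60 (adjusted p = 0.041). The second Cd34 probe differed by 0.24 (SE 0.35). Plvap, which forms the diaphragms of fenestrae, differed by 0.56 (SE 0.37), with a second probe at 0.37 (SE 0.32), and Emcn, the endomucin gene, by 0.24 (SE 0.35).

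Secreted products gave no call in limma among 4 tested, with 0 at an unadjusted p under 0.05. Egfl7, a secreted matrix protein of endothelium, had 3.72, 4.10, 4.19 and 4.16 on PRH arrays 1, 2, 3 and 5, against 3.37, 4.14, 2.40 and 3.26 on control arrays 1, 2, 3 and 5 (difference 0.75, SE 0.34, adjusted p = 0.152). Esm1, the tip cell proteoglycan endocan, had 1.65, 1.56, 1.27 and 1.69 on PRH arrays 1, 2, 3 and 5, against -0.51, 2.39, 0.38 and 0.83 on control arrays 1, 2, 3 and 5 (difference 0.77, SE 0.55, adjusted p = 0.333). Control 2 exceeded every PRH-labelled array in Esm1 and lay among them in Egfl7, and the other controls lay below in both. Without control 2 both passed, Egfl7 at 1.03 (adjusted p = 0.049) and Esm1 at 1.31 (adjusted p = 0.0399). Vwf, the platelet-binding protein stored in endothelium, differed by 0.03 (SE 0.42), and Mmrn2, a matrix ligand of Clec14a, by 0.27 (SE 0.27).

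Of the 2 selectins, 1 could be tested. Selp, which encodes P-selectin of endothelium and platelets, had -1.32, -1.57, -0.70 and -2.10 on PRH arrays 1, 2, 3 and 5, against -0.80, -2.19, -1.81 and -1.86 on control arrays 1, 2, 3 and 5 (difference 0.24, SE 0.38, adjusted p = 0.654). The groups overlapped, and control 2, high in most endothelial genes, was the lowest array here. Sele, the cytokine-induced E-selectin, was well above background on control 3 alone and was not tested.

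Lymphatic and scavenger genes gave no call in limma among 4 tested, with 0 at an unadjusted p under 0.05. Lyve1, a hyaluronan receptor of lymphatic endothelium that some macrophages share, had -3.23, -4.03, -3.80 and -3.14 on PRH arrays 1, 2, 3 and 5, against -1.04, -3.53, -2.31 and -3.07 on control arrays 1, 2, 3 and 5. Control 1 was far above the rest and control 2 lay among the PRH-labelled arrays. The difference of -1.06 (SE 0.53) had an adjusted p of 0.18, and it passed after median centring (-1.53, adjusted p = 0.0395) and quantile normalization (-1.55, adjusted p = 0.047). Mmrn1, a multimerin of lymphatic endothelium and platelets, was well above background on 4 of 4 PRH-labelled and 2 of 4 control arrays. Its control values lay between -7.52 (control 3) and -2.34 (control 1), and its difference of 0.51 had an SE of 1.17. Prox1, the transcription factor that sets lymphatic identity, was above background on 0 of 8 arrays and was not tested.

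Stab1 and Pdpn did not pass. Stab1, a scavenger receptor of sinusoidal endothelium and macrophages, differed by -0.30 (SE 0.19) and passed after median centring (-0.77, adjusted p = 0.0453). Pdpn, podoplanin, which fibroblasts and some epithelia also carry, differed by -0.16 (SE 0.17), with a second probe at -0.34 (SE 0.20). Control 3, lowest in most endothelial genes, was the highest control in both.

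Among other genes known from endothelium, 3 rose and 6 fell of 57 tested, or 15.8%, against 25.9% of all items, and 17 (29.8%) had an unadjusted p under 0.05. Nova2, a splicing factor of vessels and neurons, rose by 1.13 (SE 0.14, adjusted p = 0.00686). Aqp1, the water channel, fell by 1.92 (SE 0.24, adjusted p = 0.00686), and Icam1, the cytokine-induced leukocyte ligand, by 1.19 (SE 0.24, adjusted p = 0.0117). Klf4, a flow-induced transcription factor, fell by 0.75 (SE 0.18, adjusted p = 0.021). The other 5, named after their values were seen, were Kdr (1.17) and Acvrl1 (0.64), higher, and Efnb2 (-1.05), Thbd (-0.91) and Heg1 (-0.66), lower. A second Efnb2 probe passed in the opposite direction (0.86), and Kdr and Acvrl1 were not called after median centring. A second Kdr probe had a difference of the opposite sign (-0.48, SE 0.24, adjusted p = 0.177). With the mouse number as a block Foxc2 (-0.56), Foxf1 (0.58) and Myct1 (0.60) passed as well, at adjusted p of 0.0499, 0.0425 and 0.0456, and Heg1 was lost (adjusted p = 0.0545). Aqp1, Icam1 and Nova2 were called in each of the 8 fits without 1 array, and each of the other 6 was lost in at least 4 of them.

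The spread of controls was present in those genes too. Their median deviation was -0.09, -0.03, -0.08 and 0.05 on PRH arrays 1, 2, 3 and 5, against -0.05, 0.51, -0.47 and 0.07 on control arrays 1, 2, 3 and 5. Control 2 was the highest and control 3 the lowest control in 29 of the 57 (50.9%). The median ratio of the control SD over the PRH-labelled SD was 2.17 there, beside 4.17 in the identity genes. It was 1.26 in all items and 1.49 in named genes.

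Taking this endothelial level out of each array narrowed the control group in some identity genes and widened it in others. The control SD went from 0.79 to 0.39 in Cdh5 and from 0.22 to 0.56 in Stab1. After subtracting the median deviation of the 57 other genes, a choice made after the levels were seen, the groups did not overlap in 8 of the 39 genes (20.5%), against 22.9% of all items. The identity genes thus did not separate more often than items at large. Higher in PRH-labelled tumours were 6 genes, Cldn5, Icam2, Dll4, Cd34, Gpihbp1 and Egfl7, and lower were Ets1 and Podxl. Of all 34543 items 5661 were higher and 2265 lower without overlap. Dll4 then had -0.80, -0.82, -0.73 and -1.07 on PRH arrays 1, 2, 3 and 5, against -1.73, -1.43, -1.90 and -1.94 on control arrays 1, 2, 3 and 5 (difference 0.89, limma adjusted p = 0.0537). Gpihbp1 had 4.11, 3.74, 4.04 and 4.18 on PRH arrays 1, 2, 3 and 5, against 2.79, 3.46, 1.84 and 2.93 on control arrays 1, 2, 3 and 5 (difference 1.26, adjusted p = 0.062). In both the lowest PRH-labelled array exceeded the highest control. With this centring 0 of the 39 passed in limma, 8 (20.5%) had an unadjusted p under 0.05 against 27.4% of all items, and of all 34543 items 1 passed (0.00289%).

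Leaving out single controls changed which endothelial genes were called. Without control 2, 5 genes passed as higher in PRH-labelled tumours, Cd34, Dll4, Egfl7, Esm1 and Gpihbp1, and 1 as lower, Ets1. In that fit 12.3% of all items were called higher and 4.59% lower. Without control 3, when 14.4% of all items were called higher and 5.83% lower, Ets1 and S1pr1 passed as lower and 0 genes as higher. The median difference of the 39 genes was -0.07 without control 3, beside 0.23 for all items. It was 0.33 without control 2, beside 0.26 for all items. Without both, 0 of 39 passed in limma and 11 (28.2%) had an unadjusted p under 0.05, against 27.2% of all items, while 1 of 34543 items passed.

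Markers of other cell types moved with the same control arrays in part. Control 2 was the highest and control 3 the lowest control in 7 of 10 skeletal muscle genes and 6 of 12 pericyte genes. That order held in 3 of 10 platelet, 2 of 12 epithelial and 1 of 11 lymphocyte genes. It held in 0 of the fibroblast, leukocyte, erythroid and adipocyte genes. The 12 pericyte and smooth muscle genes had a median deviation of 0.08, -0.16, 0.43 and 0.04 on PRH arrays 1, 2, 3 and 5, against -0.01, 0.32, -1.05 and -0.02 on control arrays 1, 2, 3 and 5, so that control 3 was low in pericyte as in endothelial genes. The 12 epithelial genes were also low on control 3, which was the lowest of all 8 arrays in 9 of them. Fibroblast genes had -0.22, -0.26, -0.28 and 0.16 on PRH arrays 1, 2, 3 and 5, against 0.27, -0.18, 0.45 and -0.15 on control arrays 1, 2, 3 and 5, with control 3 the highest array. Leukocyte genes had 0.38 on control 3 and 0.03 on control 2. The control SD was larger in 12 of 12 pericyte, 10 of 10 skeletal muscle, 9 of 9 adipocyte and 11 of 12 epithelial genes. It was larger in 10 of 12 fibroblast, 9 of 11 lymphocyte, 8 of 10 leukocyte, 4 of 5 erythroid and 5 of 10 platelet genes. The median SD ratio was 5.94 in adipocyte genes, above the 4.17 of the identity genes, and 0.91 to 2.58 in the other cell type lists.

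Erythroid and platelet genes also had their lowest median deviation on control 3. The leukocyte list (0.38 on control 3) and the lymphocyte list (-0.14) did not. The 5 erythroid genes had a median deviation of 0.93, 0.23, -0.21 and 0.90 on PRH arrays 1, 2, 3 and 5, against 0.38, -0.22, -1.37 and -0.57 on control arrays 1, 2, 3 and 5. Control 3 was the lowest of all 8 arrays in 5 of 5, their summed level ran over 43.4 to 94.9 on the PRH-labelled arrays and 19.6 to 77.3 on the control arrays, and all 5 differences were positive (median 0.91). The 10 platelet genes had 0.14, 0.15, 0.35 and 0.40 on PRH arrays 1, 2, 3 and 5, against -0.24, 0.08, -0.62 and -0.38 on control arrays 1, 2, 3 and 5, with control 3 again the lowest array. Gene by gene, control 3 was the lowest of all 8 arrays in 6 of the 10 platelet genes. All 10 platelet differences were positive (median 0.47). The platelet genes were mostly dim, with a median level of -3.44 to -2.33 over the 8 arrays. Among all tested probes the median difference was 0.87, 0.70, 0.61 and 0.55 in the 4 dimmest of the 10 bins of brightness. The part of brightness in the platelet differences was not tested. The part of blood in the endothelial values was not tested.

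Fat and muscle genes differed widely between single arrays. The 9 adipocyte genes stood at 0.60, 0.17, -0.06 and 0.14 on PRH arrays 1, 2, 3 and 5, against 3.93, -0.55, -2.39 and -0.16 on control arrays 1, 2, 3 and 5, with control 1 far above the others. The 10 skeletal muscle genes stood at 0.47, -0.35, 0.07 and 0.72 on PRH arrays 1, 2, 3 and 5, against -0.59, 1.85, -1.64 and 0.20 on control arrays 1, 2, 3 and 5, and control 2 was the highest of all 8 arrays in 9 of them. The summed level of the adipocyte genes ran over 9.30 to 13.5 on the PRH-labelled arrays and 3.88 to 103 on the control arrays, and that of the muscle genes over 4.69 to 9.72 on the PRH-labelled arrays and 2.30 to 18.4 on the control arrays. The part of other tissue in the endothelial spread was not tested.

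**Figure D5:**
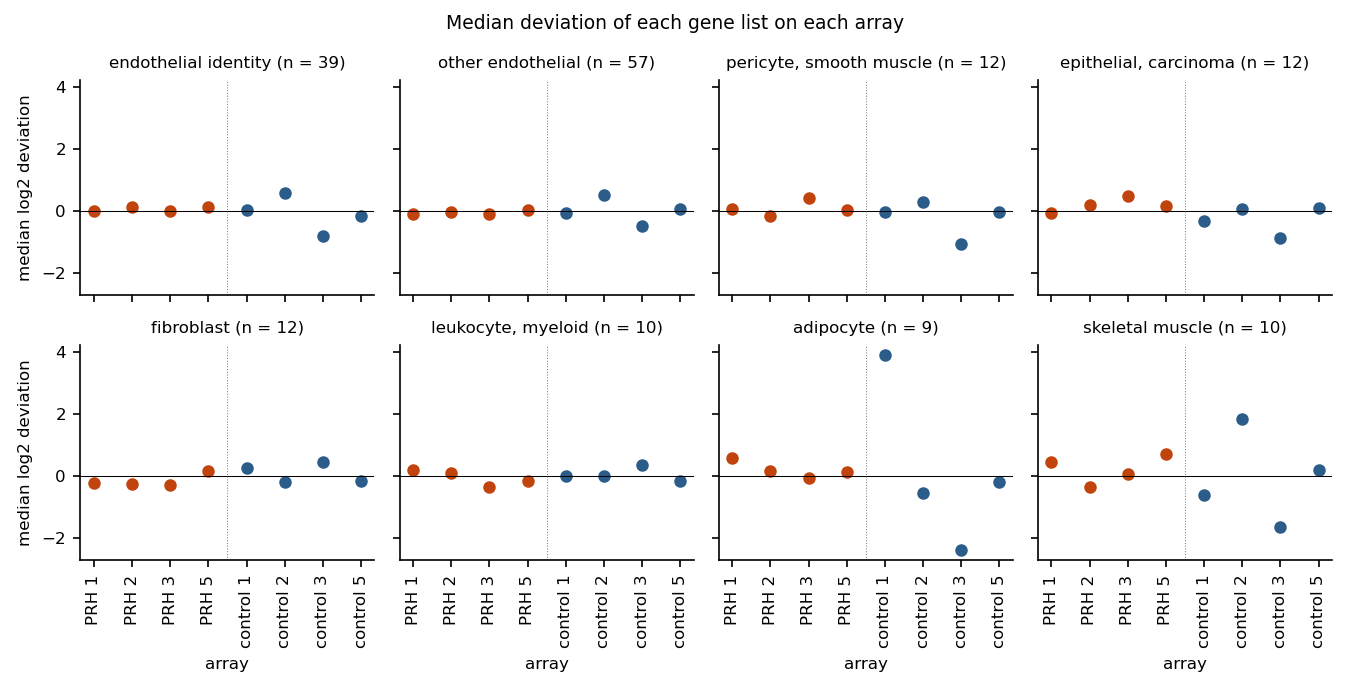
Median log2 deviation of 8 gene lists on each array (y axis), PRH-labelled arrays left of the dotted line and control arrays right of it, with n the number of tested genes. Endothelial identity genes, at 0.58 on control 2 and -0.78 on control 3, share their low point on control 3 with pericyte, epithelial, adipocyte and muscle genes, and adipocyte genes peak on control 1 at 3.93.

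Of 91 tested markers of other cell types 9.89% were called, against 25.9% of all items. Of 12 pericyte and smooth muscle genes Tagln rose (0.91) and Pdgfrb fell (-0.66), of 12 fibroblast genes Pdgfra fell (-0.73), and of 12 epithelial genes Krt14 (1.93) and Krt18 (0.52) rose. Of 10 leukocyte genes Mrc1 fell (-1.16), the platelet gene Treml1 rose (0.87), and of 10 skeletal muscle genes Mylpf rose (1.31). Treml1 was dim, with a mean of -2.48 in PRH-labelled tumours and -3.35 in controls. Mylpf was dim too, at -3.44 in PRH-labelled tumours and -4.75 in controls. The part of brightness in the Treml1 and Mylpf results was not tested. Of 11 lymphocyte, 5 erythroid and 9 adipocyte genes 0 passed in limma, with 1, 2 and 0 at an unadjusted p under 0.05. With the mouse number as a block 3 of the 5 erythroid genes passed as higher in limma. They were Slc4a1 (1.42, adjusted p = 0.0097), Ermap (0.71, adjusted p = 0.0255) and Klf1 (0.47, adjusted p = 0.0497). The lymphocyte gene Cd3e passed too (0.76, adjusted p = 0.0271), and these genes were named after their values were seen. Klf1 was dim, at -4.22 in PRH-labelled tumours and -4.69 in controls, and the part of brightness in its result was not tested. The epithelial gene Krt18 and the platelet gene Treml1 were not called in any of the 5 other scalings. Among the 8 fits without 1 array, Treml1 was called in 1 and Krt18 in 3. Treml1 was also not called by limma with the mouse number as a block (adjusted p = 0.0525).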

How the data were processed

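RNA of 8 samples was measured on 1-colour Agilent mouse arrays, 4 with the PRH label and 4 controls, grouped by the sample titles. The labels conflict on whether these were whole tumours or endothelial isolates. The deposited intensity values are background-corrected spot signals of 1 array each, made with Agilent Feature Extraction per the file headers, while the submitters' processing notes name version 9.1 of it. The authors also deposited a table of normalized intensity values, made in R per the design text by a method not stated, and it served as an alternative.

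From the deposited intensities, log2 of the processed signal minus the log2 of the array's 75th percentile over non-control spots was computed. Probes well above background on at least 4 of 8 arrays were kept, and a gene is given by its brightest such probe. The fit was limma 3.58.1 (lmFit, eBayes; R 4.3.3), two-sided, with Benjamini-Hochberg adjustment over all 34543 items (genes and probes without a symbol) and a threshold of 0.05, tested on simulated data. Each array holds 1 sample of its group, and the labels give each a mouse number. Symbols came from RefSeq through the accession of each probe, and 25869 of 26392 mRNA accessions matched.

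Deviations from the group means correlated across probes between the 2 arrays of a mouse number, at 0.203, 0.436, 0.665 and 0.274 for numbers 1, 2, 3 and 5. Each was over 0.1. Correlations between arrays of different numbers were not set beside them, so these values do not show that the numbers pair the mice. A number is also a slide row, so mouse and row cannot be told apart. The main model had no block, and the model with it is given where it changes a call.

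Alternatives were median, quantile and spike-in scaling, normexp background correction (offset 50, on the median spot signal, since the mean was not among the columns used) with quantile normalization, the authors' table, no filter and a filter on all 8 arrays, the mean of a gene's probes, the block, and leaving out each array. After the levels were seen, leaving out controls 2 and 3 and centring on other endothelial genes were added. The endothelial identity genes and all lists were chosen with earlier results of these data known. By rule, values on every array were to be printed for genes that passed, for genes whose groups did not overlap, for genes whose probes disagreed and for the gene with the smallest p in each role. Values on every array of Cldn5, Cdh5, Pecam1, Fli1, Sox18, Robo4, Apln, Bmx, Cd34, Esm1 and other genes beyond this rule, and the 5 further endothelial genes, were chosen after their values were seen. Of each other list up to 4 genes with the smallest p were to be named. Not every call among markers of other cell types is reported here.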

Additional observations from a re-analysis of the deposited data

Results flagged for a closer look

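In 2 of 78 groups of 4 arrays, 39 genes in each of the 2 conditions, a single array stood apart by Dixon's test, where chance gives about 1 in 20. Fli1 on PRH 5 was at -0.06 while the other PRH-labelled arrays lay between -0.46 and -0.41, a gap of 0.889 of the group's range. Podxl on PRH 3 was at -1.80 while the other PRH-labelled arrays lay between -1.56 and -1.54, a gap of 0.933 of the group's range. Both gaps were set against narrow groups.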

How the results depend on the processing

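Calls by limma among the 39 endothelial identity genes numbered 2, against 6 with median centring, 4 with quantile normalization, 0 with spike-in centring, 0 without controls 2 and 3, 0 after centring on other endothelial genes, and 1 to 6 without 1 array. At an unadjusted p under 0.05 in limma those settings with 0 calls had 3, 11 and 8 (7.69%, 28.2% and 20.5%). The shares of all items were 20.3%, 27.2% and 27.4% in the same order. For the other endothelial genes the count of 9 became 15, 14, 0, 0, 0 and 4 to 13 in the same order. For markers of other cell types the count of 9 became 16 with median centring, 0 in each of spike-in centring, the fit without controls 2 and 3 and the endothelial centring, and 4 to 16 without 1 array. For all items 8934 became 1 in each of those 3 settings and 5733 to 11467 without 1 array. The cause was not tested.

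Median centring moves every difference by the same -0.47 and spike-in centring by -0.13, so the signs that turn there are those of positive differences smaller than the shift. With median centring the sign turned for Pecam1 (-0.0094), Gja4 (-0.25), Gja5 (-0.31), Sox7 (-0.26), Sox18 (-0.22), Tal1 (-0.35), Lyl1 (-0.33), Aplnr (-0.22), Ramp2 (-0.43), Robo4 (-0.33), Clec14a (-0.30), Rasip1 (-0.23), Nos3 (-0.30), Ecscr (-0.34), Emcn (-0.22), Vwf (-0.44), Mmrn2 (-0.20) and Selp (-0.22). With quantile normalization it turned for Cdh5 (0.00073), Gja5 (-0.33), Sox7 (-0.12), Tal1 (-0.27), Clec14a (-0.14), Selp (-0.075) and Mmrn1 (-0.050). With normexp it turned for Cdh5 (0.083), Gja5 (-0.18), Sox7 (-0.20), Tal1 (-0.083), Aplnr (-0.0095), Clec14a (-0.063) and Mmrn1 (-0.34). In the authors' values it turned for Cdh5 (0.11), Gja5 (-0.22), Sox7 (-0.20), Tal1 (-0.090), Clec14a (-0.035) and Mmrn1 (-0.35). With spike-in centring it turned for Tal1 (-0.018), Ramp2 (-0.092), Ecscr (-0.00073) and Vwf (-0.10). Without controls 2 and 3 it turned for Aplnr (-0.14), Ramp2 (-0.014), Vwf (-0.46), Selp (-0.093), Pdpn (0.024) and Mmrn1 (-1.71).

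Without 1 array the sign turned for 16 genes, whose differences ran over -0.40 to 0.23 (Cdh5), -0.57 to 0.054 (Esam), -0.11 to 0.35 (Gja5), -0.031 to 0.33 (Lyl1), -0.23 to 0.27 (Ramp2), -0.30 to 0.42 (Vwf), -0.16 to 0.53 (Sox7), -0.17 to 0.68 (Sox18), -0.29 to 0.53 (Aplnr), -0.16 to 0.44 (Robo4), -0.28 to 0.50 (Clec14a), -0.072 to 0.49 (Rasip1), -0.064 to 0.39 (Nos3), -0.069 to 0.33 (Ecscr), -0.047 to 0.56 (Emcn) and -0.46 to 1.27 (Mmrn1).

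With the mouse number as a replicate block, limma gave 3 calls among the endothelial identity genes (Bmx added) and 11 among other endothelial genes. There were 12 among other markers and 12233 among all items. Among the genes named in the text Bmx passed (adjusted p = 0.0346), as did Foxc2, Foxf1, Myct1, Slc4a1, Ermap, Klf1 and Cd3e, and Treml1 (adjusted p = 0.0525) and Heg1 (adjusted p = 0.0545) were lost. With no filter, a filter on all 8 arrays, the mean of a gene's probes, normexp and the authors' values, each of the 4 counts stayed within 1.5 times its value. In all, 861 recomputed values for named genes kept direction and side of the threshold, 150 lost the call, 19 gained it and 71 turned sign.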
